A study of Mus musculus with 31 samples.

Results

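In spleen regulatory T cells (Tregs) of mice injected with interleukin 2, 399 ATAC-seq peaks opened early. At 72 h after an IL-2 fusion protein, their mean was below PBS or above it by less than a set limit. It was still above PBS in 302 of the 399 (75.7%), against 47.8% of all peaks. ATAC-seq counts insertions of the Tn5 transposase, which enters open chromatin. The 399 peaks were chosen among 104979 by their values. The 15 peaks that each held over 0.2% of all counts, together 37.6% of the counts, were dropped, and each library was scaled to CPM, the counts in each megacount of that library. The difference from PBS, here D, was the log2 ratio of the treated mean to the PBS mean of the same time, with 0.5 CPM added to each mean. Chosen peaks had a D of at least 0.8, with every treated library above every PBS library, both for IL2 at 0.75 h and for FP at 16 h. Their D for FP at 72 h was under 0.5. Peaks that met the early criteria and had a 72 h D of 0.5 or more numbered 331 and are called the retained peaks. Of 730 early-opened peaks, 54.7% were thus lost by 72 h. The lost peaks formed 327 regions after overlapping peaks were merged, 306 of them with 1 peak, and carried 306 gene names in the deposited table.

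The mice carried an RFP-FoxP3 reporter, a red fluorescent label of Tregs, on the C57BL/6 strain, and received 5 µg mouse IL-2 (IL2), 20 µg of a mouse IL-2 fusion with CD25 (FP) or 100 µL PBS. The doses of IL2 and FP differed, so differences between them are not differences at a matched dose. There were 3 libraries each of PBS, IL2 and FP at 0.75 h and at 16 h, 3 of PBS and 3 of FP at 72 h, and 3 of PBS and 4 of FP at 168 h. Whether libraries of 1 group are separate animals is not given in the labels, and the p-values then measure only the spread between libraries, which may be technical. Times after 0.75 h rest on the sample titles and column names, since the protocol field gives 0.75 h throughout. Each time point has its own date in the labels, so time and date cannot be told apart, and groups are set against PBS of their own time.

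IL-2 binds a receptor whose alpha chain, CD25, Tregs carry at a high level. The receptor activates the kinases JAK1 and JAK3, which phosphorylate STAT5. STAT5 dimers then enter the nucleus and bind palindromic DNA sites of the form TTCNNNGAA, called GAS elements. Tregs depend on this pathway for survival and for their identity, and the pathway induces its own inhibitors.

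Most of the lost peaks held such a site. The windows below are shown because they carry a match to 1 of the 3 STAT5 forms searched (TTCCNGGAA, TTCTNGGAA and TTCTNAGAA, on both strands, each also a GAS match) at genes described further on. Each runs from 40 bases before to 40 bases after a match, on the plus strand of GRCm38 (RefSeq sequence), and capitals mark every match to these forms in the window.
Gm17490, upstream of Il2ra, chr2:11629738-11629826: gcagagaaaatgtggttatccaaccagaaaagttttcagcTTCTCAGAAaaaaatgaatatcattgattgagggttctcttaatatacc
Trat1, chr16:48765330-48765418: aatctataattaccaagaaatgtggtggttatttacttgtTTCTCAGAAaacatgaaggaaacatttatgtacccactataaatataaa
Cdk6, chr5:3461176-3461264: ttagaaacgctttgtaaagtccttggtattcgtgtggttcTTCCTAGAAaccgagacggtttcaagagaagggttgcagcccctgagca
Ptpn1, chr2:167952014-167952102: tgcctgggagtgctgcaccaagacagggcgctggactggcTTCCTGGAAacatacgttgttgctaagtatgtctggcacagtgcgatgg
Cblb, chr16:52055319-52055407: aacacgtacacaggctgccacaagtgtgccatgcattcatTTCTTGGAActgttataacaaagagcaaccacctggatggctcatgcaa
Itga4, chr2:79270169-79270257: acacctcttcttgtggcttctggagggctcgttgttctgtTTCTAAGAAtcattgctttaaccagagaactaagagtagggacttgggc
Ikzf2, chr1:69554643-69554731: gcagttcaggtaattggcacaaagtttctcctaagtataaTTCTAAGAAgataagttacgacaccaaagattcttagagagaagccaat
Izumo1r, chr9:14892332-14892420: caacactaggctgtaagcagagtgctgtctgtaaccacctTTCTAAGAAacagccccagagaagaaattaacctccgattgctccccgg
Slc39a10, chr1:46864418-46864506: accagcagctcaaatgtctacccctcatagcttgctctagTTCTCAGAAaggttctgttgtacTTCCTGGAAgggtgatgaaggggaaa
Far1, chr7:113520257-113520345: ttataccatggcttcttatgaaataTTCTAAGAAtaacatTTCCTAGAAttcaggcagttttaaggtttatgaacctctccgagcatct
Mbd5, chr2:49177200-49177288: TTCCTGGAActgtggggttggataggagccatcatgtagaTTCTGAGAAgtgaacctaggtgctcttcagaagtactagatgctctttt
The windows at Slc39a10, Far1 and Mbd5 held 2 matches each and the other windows 1. A match was found in 69.9% of the lost peaks (279 of 399), in 76.4% of the retained peaks and in 7.17% of all peaks. Wider peaks hold more matches, and the lost peaks had a median width of 555 bp against 366 bp over all peaks. Among all peaks whose widths lay between the quartiles of the lost peaks' widths, 10.3% held a match. In the 200 bases around the peak centre, the shares were 45.4% of lost peaks, 53.5% of retained peaks and 3.81% of all peaks. Any GAS match was found in 81.5% of lost peaks, 84.3% of retained peaks and 13.3% of all peaks, and 74 lost peaks had none. At least 2 STAT5 matches stood in 65 lost peaks (16.3%, against 0.57% of all peaks), and the nearest pair was a median of 70 bp apart. Of the lost peaks with a match, 65.6% had it within 100 bp of the peak centre, against 72.3% of retained and 49.5% of all peaks with a match.

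Other motifs were in smaller shares of the lost peaks. The AP-1 letters TGANTCA, bound by Fos and Jun dimers, were in 26.3% of lost peaks, 19.9% of retained peaks and 18.5% of all peaks of like width. With 1 peak kept per region, AP-1 shares were 24.5% of lost and 21.3% of retained peaks. RUNX letters (TGTGGTT) were in 27.1% of lost peaks, 27.5% of retained peaks and 17.4% of peaks of like width. The letters AGATAA, bound by factors of the GATA family, were in 32.3%, 32.9% and 23.9%. Tandem IRF letters were in 15% of lost and 10.9% of retained peaks, TCF/LEF letters (CTTTGAT) in 13.3% and 17.2%, forkhead letters (TGTTTAC) in 11.8% and 7.55%, the E-box CAGCTG in 23.8% and 28.4%, and NF-kB letters (GGGANNTCC) in 4.01% and 4.53%. Peaks of like width had 10.0%, 9.15%, 8.23%, 29.1% and 7.08% in that order. With 1 peak per region, the lost and retained shares were 14.1% and 14.2% for TCF/LEF, 26.6% and 25.9% for the E-box, and 13.1% and 7.45% for forkhead letters. In the central 200 bases, forkhead letters were in 3.26% of lost, 3.32% of retained and 3.33% of like-width peaks. NFAT letters (TGGAAA), which can overlap the end of a GAS element, were in 48.1% of lost, 52.3% of retained and 38.4% of like-width peaks. With 1 peak per region, the NFAT shares were 51.7% of lost and 48.9% of retained peaks. Letters common at promoters were rarer than in peaks of like width: KLF/SP (GGGCGG) was in 6.77% of lost peaks against 26.1%, and ETS (CCGGAAG) in 1.25% against 8.00%. Of the lost peaks, 1 held a core match for the insulator protein CTCF. Peaks of like width were not matched for GC content, with a median of 48.4% against 43.1% in lost peaks. Nor were they matched for place: 26.9% lay within 1 kb of a transcription start site, against 8.77% of lost peaks. How much of the motif shares goes with these differences was not tested. These shares are descriptions of letters in the peaks and not of binding.

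**Figure D1:**
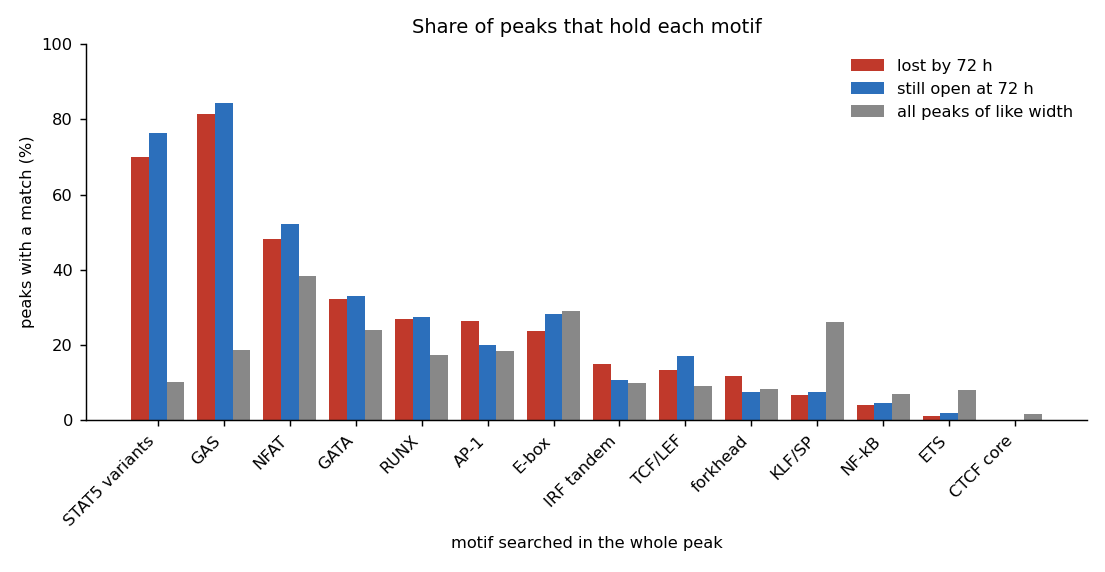
Share of peaks (vertical axis, percent) that hold each motif anywhere in the peak (horizontal axis), for the 399 lost peaks, the 331 retained peaks and 30890 peaks of like width. The bars of the STAT5 and GAS letters reach 69.9% and 81.5% for lost peaks. Among the other motifs, lost peaks stand above retained peaks for AP-1 (26.3% and 19.9%) and below them for the E-box (23.8% and 28.4%).

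The lost peaks lay mostly inside genes and away from transcription start sites. By the GENCODE M21 annotation of the peak centre, 253 were in introns, 106 were intergenic, 16 in coding exons, 15 in noncoding exons and 9 in untranslated regions. Introns held 63.4% of lost peaks, 44.3% of all peaks and 54.0% of peaks of like GC content and abundance. Intergenic shares were 26.6%, 39.2% and 39.8%. Coding exons held 4.01% of lost and 3.84% of all peaks, and 5 lost peaks with 1 peak kept per region. The median distance to the nearest start site was 11173 bp, against 6206 bp over all peaks, and 8.77% lay within 1 kb of one, against 29.1%. Peaks of like GC content and abundance, between the lost peaks' quartiles of both, were close to the lost peaks. Their median distance was 10235.5 bp, and 10.3% lay within 1 kb. Retained peaks had nearly the same median distance (11286 bp) and share within 1 kb (9.67%). GC content had a median of 43.1% in lost peaks, 44.6% in retained peaks and 48.8% over all peaks. Lost and retained sites were neighbours at some loci: 8 regions held both kinds, and 31 gene names had separate lost and retained regions, among them Cdk6, Ptpn1, Runx1, Cd47, Samsn1 and Arid5b. At Runx1, which encodes a transcription factor of T cell development, both sites were intronic. The lost one (chr16:92821716-92822346) had a D of 0.95 for FP at 16 h and 0.29 at 72 h, and the retained one (chr16:92810519-92811403) had 0.82 and 0.83.

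Library totals ran from 7.39 to 59.6 M (mega) counts. The lowest were PBS replicate 1 at 168 h with 7.39 M and FP replicate 2 at 168 h with 12.3 M. PBS replicate 2 at 168 h was next with 13.4 M, and the other 168 h libraries had 32.8 to 37.7 M. Depth was thus not balanced between FP and PBS at 168 h. The sorted cells had peaks at all 7 T cell and Treg markers checked (Cd3e, Cd3d, Cd4, Foxp3, Il2ra, Ctla4 and Ikzf2), and the Foxp3 peak ranged from 18.1 to 42.2 CPM over the 31 libraries. Of the 6 B cell markers, 3 had a promoter peak, with medians of 2.21 CPM at Cd79a, 3.92 at Ebf1 and 5.71 at Pax5, and the T cell marker Cd4 had 2.31 CPM. All 3 CD8 T cell markers had peaks, with a median of 14.2 CPM at Cd8b1, and the summed CD8 level ranged from 71.0 to 225 CPM over the groups. Of the 7 erythroid markers, all but Alas2 had one, and their summed level was above PBS in every treated library for IL2 at 0.75 h (88.5 to 124 CPM, PBS 60.8 to 76.2) and for FP at 72 h (92.7 to 141 CPM, PBS 52.0 to 92.4). For FP at 16 h the erythroid range was 78.2 to 162 CPM, with PBS at 60.2 to 86.0. B cell sums for FP at 16 h were 12.3 to 20.9 CPM, with PBS at 8.46 to 11.8, and myeloid sums (5 of 7 markers with a peak, Csf1r and Mpo without) were 153 to 183 CPM, with PBS at 70.9 to 141. At 168 h the erythroid sums of FP (32.1 to 80.5 CPM) and PBS (38.1 to 88.1 CPM) overlapped. The part of these other cells in the results was not tested.

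In PBS libraries the lost peaks had nearly the same median level at every time, although single peaks varied. The PBS group means of a lost peak spanned a median of 0.65 on the log2 scale, against 0.68 over all peaks. The median level over the 399 peaks, averaged over libraries, was 5.00 ± 0.20 CPM (SD, n = 3) at 0.75 h, 4.49 ± 0.33 (n = 3) at 16 h, 4.66 ± 0.33 (n = 3) at 72 h and 4.78 ± 0.41 (n = 3) at 168 h. It was 14.5 ± 0.92 (n = 3) for IL2 and 9.26 ± 1.75 (n = 3) for FP at 0.75 h. At 16 h it was 4.58 ± 0.17 (n = 3) for IL2 and 11.0 ± 0.98 (n = 3) for FP. The FP value was 5.41 ± 0.058 (n = 3) at 72 h and 4.02 ± 0.37 (n = 4) at 168 h. IL2 at 0.75 h and FP at 16 and 72 h are the values that chose the peaks. In each of the 3 FP libraries at 72 h the median level was below 5.5 CPM, while that of the retained peaks was 7.57 ± 0.39 CPM (SD, n = 3).

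**Figure D2:**
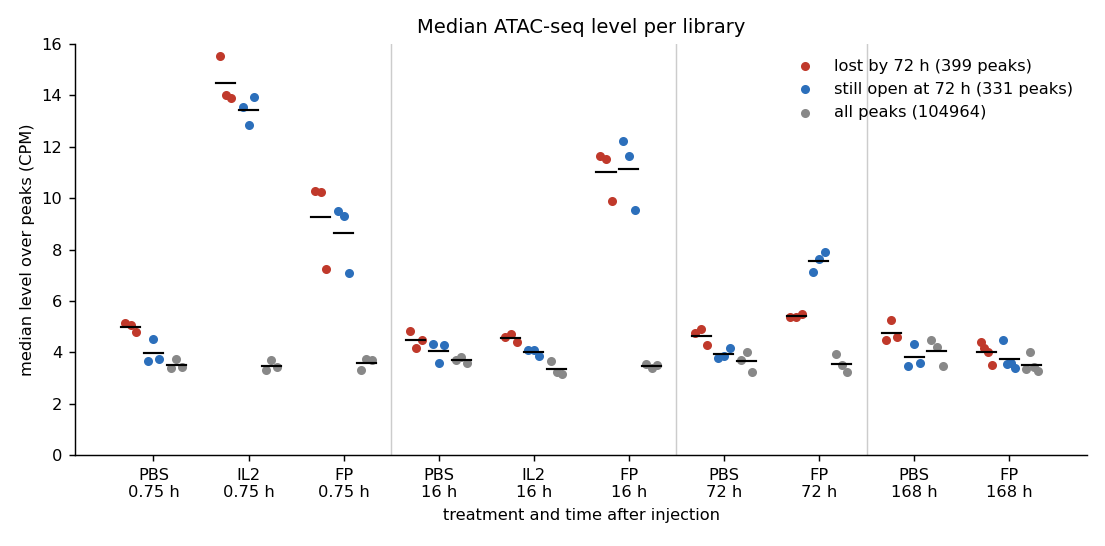
Median level (vertical axis, CPM) in each library (points) by treatment and time (horizontal axis), with the mean of each group as a black bar, for lost, retained and all peaks. The lost peaks stand at 14.5 CPM for IL2 at 0.75 h and 11.0 CPM for FP at 16 h, and return to 5.41 CPM at 72 h, where the retained peaks stand at 7.57 CPM.

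IL2 at 0.75 h, which chose the peaks, gave a median D of 1.37, from 0.80 to 3.43. FP at 16 h, which also chose them, gave a median D of 1.11, up to 2.37. Retained peaks had a higher median D in both (1.57 and 1.33), although the rule set the same lower limit for both kinds. Over all peaks, 2.87% met the same limit and separation for IL2 at 0.75 h and 1.79% for FP at 16 h. edgeR's quasi-likelihood test at an adjusted p under 0.05 called 142 of the 399 higher for IL2 at 0.75 h, where it called 0.488% of all tested peaks, and 46 of 398 for FP at 16 h, where it called 0.114%. These calls use the contrasts of the rule, and nothing is read from them. They also rest on few libraries: without 1 library at a time, the members called ran from 59 to 170 at 0.75 h and from 10 to 57 at 16 h. Over the 399 peaks, the IL2 D at 0.75 h and the FP D at 16 h had a Pearson r of 0.35, given as a description across peaks within shared libraries and a range cut by the rule. Just inside the limits lay peaks at Itpr1 (D of 0.80 for IL2 at 0.75 h) and Panx1 (0.80 for FP at 16 h), and just outside Atp8a1 (0.79) and Arid5a (0.80, under the limit before rounding).

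The FP mean at 0.75 h was above the PBS mean at nearly all the lost sites. FP libraries at 0.75 h did not enter the rule, but they share their PBS libraries with IL2 at 0.75 h, so no p is given. The median D was 0.83, against 0.01 over all peaks, and D was above 0 in 396 of the 399. Retained peaks had a median of 0.94, with D above 0 in 98.8%, and the 1651 peaks that met the limits for IL2 at 0.75 h but had a D under 0.5 for FP at 16 h had 0.61 and 94.4%. These peaks were chosen against the same PBS libraries, and how much of their D comes from the shared PBS was not tested. Every FP library was above every PBS library in 235 (58.9%), against 4.5% of all peaks, and 166 also had a D of at least 0.8, against 1.85% of all peaks. The median D of the 3 FP libraries was 1.00, 0.91 and 0.57, so replicate 3 was the lowest. edgeR called 0 of the 399 at an adjusted p under 0.05 and 0.00199% of all peaks. At an unadjusted p under 0.05, 266 of the 399 were higher, and 2.09% of all peaks, in a comparison whose PBS libraries chose the members. With 1 library left out at a time, edgeR called 0 to 6 of the 399 and 0 to 25 of all peaks. The 6 were called without FP replicate 3. Nothing is read from these calls, since the PBS libraries chose the members.

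IL2 libraries at 16 h were near the PBS level at these sites as a group. The median D was 0.02, against -0.08 over all peaks, and the 3 libraries gave 0.00, 0.08 and -0.12. Every IL2 library was above every PBS library in 11 of the 399 (2.76%), against 2.69% of all peaks, and below in 11, against 6.13%. edgeR called 0 of 398 members and 0% of all peaks, and at an unadjusted p under 0.05 it had 13 higher and 7 lower members (1.59% and 2.02% of all peaks). The PBS libraries are those of the FP comparison at 16 h, which the rule used. IL2 at 72 or 168 h was not analysed here.

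The FP level was lower at 72 h than at 16 h in nearly all the peaks, and the PBS level differed less. The FP mean was lower in 385 of the 399, by over 0.5 on the log2 scale in 309, with a median change of -0.90. Over all peaks 48.3% were lower, 15.6% by over 0.5, with a median change of 0.02, and 295 of the 331 retained peaks were lower too, with a median of -0.63. The PBS mean changed by a median of 0.11, and in 59 peaks the PBS difference upward was larger than the FP difference downward. PBS was higher at 72 h by over 0.5 in 61 of the 399, and in 12865 of all 104964 peaks. A median of 14.2% of the 16 h gain over PBS in CPM was left at 72 h, against 46.3% in the retained peaks. At 72 h the median D was 0.24, and D was above 0 in 302 of the 399 (75.7%), against 47.8% of all peaks. Every FP library was above every PBS library in 57 peaks (14.3%), against 6.71% of all peaks. All FP libraries were below PBS in 5, against 5.19%. Since the rule used the 72 h values, these values describe the chosen peaks and test nothing. edgeR called 0 members and 0% of all peaks at 72 h, and at an unadjusted p under 0.05 it had 7 higher and 1 lower members (2.43% and 2.78% of all peaks). The limit of 0.5 cut a continuous range: Gpat4 lay just inside at 0.4997 and Aven just outside at 0.5015. D at 72 h was unrelated to D at 16 h over the 399 peaks (r of -0.02, a description across peaks with a range cut by the rule).

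**Figure D3:**
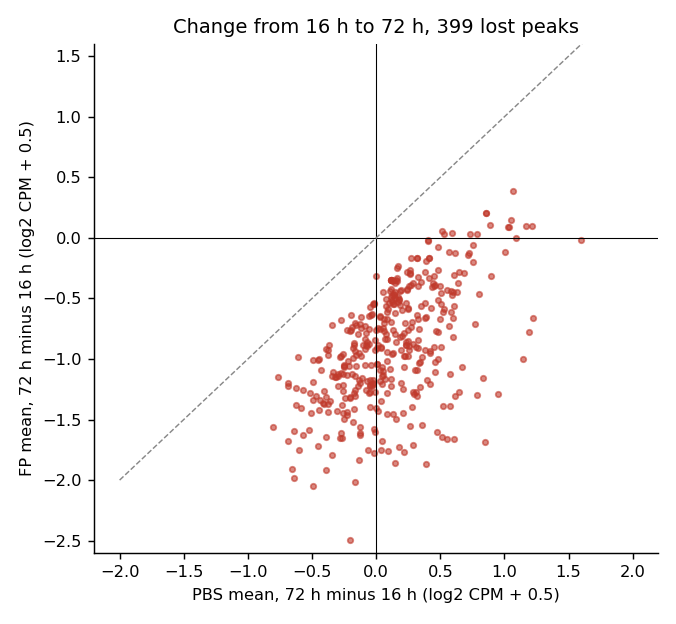
Change of the PBS mean (horizontal axis) and of the FP mean (vertical axis) from 16 to 72 h, both log2 of CPM with 0.5 added, for each of the 399 lost peaks (points), with the line of equal change dashed. Of the points, 385 lie below 0 on the FP axis, with a median of -0.90, and the PBS change has a median of 0.11.

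At 168 h neither the FP nor the PBS libraries entered the rule, so this comparison was tested. The median D was -0.14, against -0.06 over all peaks, and the 4 FP libraries gave -0.12, -0.10, -0.15 and -0.26. All peaks were also below 0 in each of them, with -0.12, -0.06, -0.10 and -0.12 in the same order, so in replicate 1 the lost peaks equalled all peaks. D was under 0 in 260 of the 399 (65.2%), in 56.1% of all peaks and in 60.2% of peaks of like GC content and abundance. No member passed edgeR's quasi-likelihood test: 395 were tested, 0 were called, and the lowest adjusted p was 0.899. Over all 102580 tested peaks it called 0 (0%) as well. At an unadjusted p under 0.05, 3 members were higher and 19 lower, against 2129 and 2529 of all peaks. DESeq2 called 45 peaks higher and 1 lower, none of them a member. With library total as a covariate edgeR called 10 peaks, again without a member. Tests at this spread (biological coefficient of variation 48.0%) recovered 49% of simulated 4-fold and 5% of simulated 2-fold changes. A 2-fold difference at a single peak was thus mostly not detectable. That simulation changed 100 peaks at each fold, and 8 unchanged peaks were called as well.

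Every FP library was below every PBS library at 168 h in 25 of the 399 (6.27%), against 3.24% of all peaks, and above in 3 (0.75%), against 2.88%. The retained peaks had 11 below (3.32%), 20 above (6.04%) and a median D of 0.02. The count depended on the scaling and on which libraries were used. With edgeR's TMM sizes it was 15 (3.76%, against 2.72% of all peaks), with a median D of -0.08 against 0.00 over all peaks. Without PBS replicate 1 and FP replicate 2, the 2 shallowest libraries, it was 83 (20.8%). All peaks had 15.1% and peaks of like GC content and abundance 18.7%. PBS replicate 2, with 13.4 M counts, stayed in. Without the 2 shallowest libraries the median D was -0.22, against -0.08 over all peaks. Peaks of like GC content and abundance had a median D of -0.10 with all libraries and -0.14 without those 2. With 1 peak per region the lost peaks had a median D of -0.18. Leaving out PBS replicate 2 alone brought the median D to -0.06.

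Lost peaks with a STAT5 match had a median D of -0.18 at 168 h, and those without 0.10. The share of D above 0 was 25.4% and 56.7%. Retained peaks had medians of 0.02 and 0.06, and the difference between the kinds was not tested. Overlapping peaks weigh in this split: the difference between the medians was -0.28 over all lost peaks and -0.07 with 1 peak per region. The regions with the most overlapping members were at Muc4 (10 peaks in a coding exon, no match), Gm13481 (10 peaks, 9 with a match), Gpat4 (7 peaks, 7 with a match) and Foxp1 (7 peaks, no match).

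**Figure D4:**
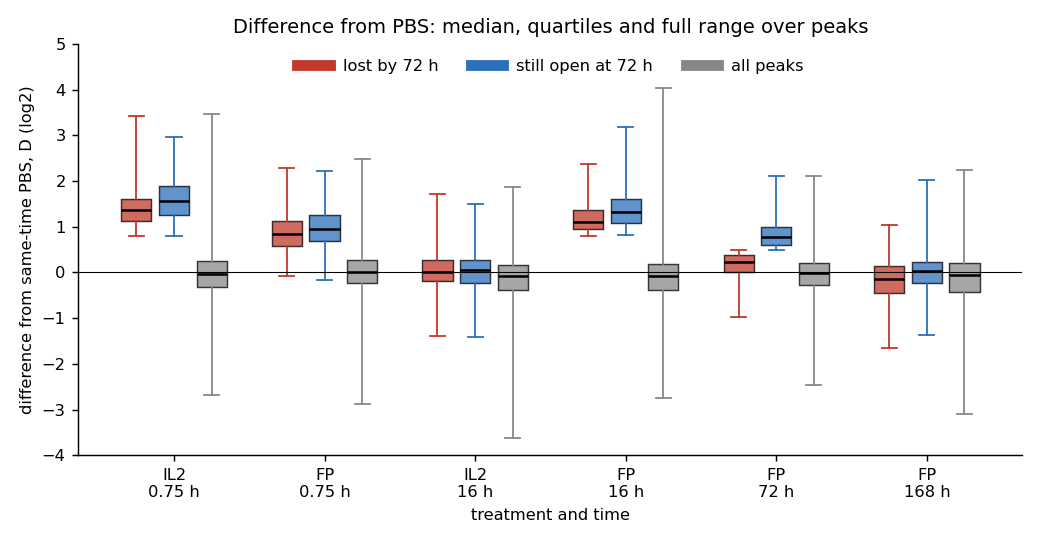
Difference from PBS of the same time (vertical axis, log2) for each treatment and time (horizontal axis), as the median, quartiles and full range over lost, retained and all peaks. The box of the lost peaks is centred at 1.37 for IL2 at 0.75 h, 0.83 for FP at 0.75 h, 0.02 for IL2 at 16 h, 1.11 for FP at 16 h, 0.24 for FP at 72 h and -0.14 for FP at 168 h.

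The list of feedback inhibitors of IL-2 signalling had a lost peak at Ptpn1, which encodes a phosphatase. It also had one at Cblb, which encodes a ubiquitin ligase that restrains T cell activation. The Ptpn1 peak (chr2:167951733-167952206, in a noncoding exon) read 2.48, 2.31 and 2.15 CPM in PBS and 9.79, 8.56 and 6.78 CPM in IL2 at 0.75 h. In FP at 16 h it read 7.42, 6.10 and 4.09 CPM, and in PBS 1.92, 1.07 and 2.23 CPM. At 72 h FP read 5.75, 6.91 and 6.33 CPM and PBS 3.88, 5.00 and 5.25 CPM. Each FP library was thus above every PBS library at 72 h, and the D of 0.39 came with a PBS mean of 4.71 CPM, against 1.74 CPM at 16 h. At 168 h FP read 2.29, 1.34, 4.30 and 2.12 CPM and PBS 6.48, 2.89 and 3.13 CPM, and the groups overlapped. A second Ptpn1 peak (chr2:167909933-167910693, intergenic) was retained, with a D of 0.89 at 72 h and -1.02 at 168 h. The Cblb peak (chr16:52054970-52055525, intron) had a D of 0.93 for IL2 at 0.75 h, 1.03 for FP at 16 h, 0.27 at 72 h and 0.09 at 168 h. Cish, the SOCS family inhibitor that STAT5 induces, had no lost peak and 2 retained ones, with a D of 1.09 and 0.97 at 72 h. In this list of 15 genes, edgeR called 1 of 160 peaks higher at each of IL2 at 0.75 h and FP at 16 h, and 0 at 168 h. Over all tested peaks it called 0.488%, 0.114% and 0% higher.

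Among survival and cell cycle genes, lost peaks were at Cdk6, a kinase that drives entry into S phase with D-type cyclins, and at Ccnd3, which encodes one of those cyclins. The Cdk6 peak (chr5:3460392-3461607, intron) was among the most accessible. It read 42.3, 44.1 and 41.1 CPM in PBS, 121, 101 and 118 CPM in IL2 and 97.8, 85.6 and 78.7 CPM in FP at 0.75 h, with no overlap between the treatments and PBS. In FP at 16 h it read 83.6, 71.0 and 58.9 CPM, and IL2 at that time read 41.6, 31.2 and 28.4 CPM, within or under the PBS libraries at 38.2, 32.9 and 42.5 CPM. At 72 h FP (28.5, 35.5 and 42.2 CPM) and PBS (28.1, 22.3 and 32.7 CPM) overlapped. At 168 h FP read 35.1, 34.6, 34.5 and 28.1 CPM and PBS 15.9, 29.3 and 32.4 CPM, a log2 fold change of 0.39 ± 0.25 (SE, edgeR adjusted p = 0.899). The Ccnd3 peak (chr17:47598046-47598556, intron) had a D of 0.91 for IL2 at 0.75 h, 1.06 for FP at 16 h and 0.35 at 72 h. Of this list of 12 genes, edgeR called 8 of 168 peaks higher for IL2 at 0.75 h, against 0.488% of all tested peaks. For FP at 16 h it called 3 of 169, against 0.114%. The retained peaks of this list were at Bcl2, Birc3, Cdk6 and Pim1, of which Bcl2 and Birc3 encode inhibitors of cell death.

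Treg identity genes had a lost peak at Ikzf2, which encodes the Treg transcription factor Helios, and at Izumo1r, which encodes the surface protein folate receptor 4. The Ikzf2 peak (chr1:69554076-69554781, intron) read 28.8, 28.4 and 20.3 CPM in IL2 and 13.6, 14.4 and 9.96 CPM in PBS at 0.75 h. In FP at 16 h it read 16.6, 14.9 and 17 CPM against 11.1, 6.91 and 7.65 CPM in PBS. At 72 h its D was below 0 (-0.29), with FP at 3.71, 6.27 and 9.93 CPM and PBS at 8.35, 6.47 and 9.93 CPM. The FP and PBS libraries overlapped at 72 h, and again at 168 h, with FP at 7.21, 7.13, 7.51 and 8.64 CPM and PBS at 3.99, 7.88 and 7.68 CPM. The Izumo1r peak (chr9:14892274-14892555, intron) was at low levels, 2.00 CPM on average, with a D of 2.1 for IL2 at 0.75 h, 1.45 for FP at 16 h and 0.34 at 72 h. Of this list of 18 genes, edgeR called 4 of 204 peaks higher for IL2 at 0.75 h, against 0.488% of all tested peaks. For FP at 16 h it called 0 of 206, against 0.114%. Nrp1 and Nt5e, a Treg surface receptor and the enzyme that forms adenosine, had retained peaks. No peak of either kind carried the name of Foxp3, Il2ra or Ctla4, but the deposited table names a peak for a nearby gene, and lost peaks lay near Il2ra and Foxp3.

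Il2ra encodes CD25, the receptor chain that makes up the fusion partner of FP, and lies at chr2:11642792-11693194 in RefSeq GRCm38. A search of the 25 kb on either side of each listed gene, added after the values were seen, found 4 lost peaks in 2 regions there, all named for Gm17490. The nearer one (chr2:11629526-11629989, intergenic) was 12.8 kb from Il2ra and was the second in rank of early opening. It read 0.196, 1.69 and 1.04 CPM in PBS, 10.1, 6.60 and 8.28 CPM in IL2 and 7.39, 4.08 and 4.87 CPM in FP at 0.75 h, with no overlap between the treatments and PBS. In FP at 16 h it read 13.2, 6.17 and 5.62 CPM, and in PBS 0.213, 0.953 and 3.70 CPM. At 72 h FP (1.34, 3.03 and 3.13 CPM) and PBS (1.42, 1.77 and 2.94 CPM) overlapped, and D was 0.24. The farther region, 22 kb from Il2ra, held 3 lost peaks, with a D at 72 h from 0.34 to 0.49, and 1 overlapping retained peak at 0.54, so the limit of 0.5 divided 1 site. Near Foxp3, the gene of the factor that defines Tregs, a lost peak named for Ppp1r3f (chrX:7567423-7567930) was 11.7 kb away and had a D of 1.03 for IL2 at 0.75 h, 1.03 for FP at 16 h and 0.12 at 72 h. Within 25 kb of Gzmb, which encodes the protease granzyme B, the lost peak named for Gm48200 had a D of 1.79, 0.89 and 0.24. No lost peak with another name was this near to any other listed gene.

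Factors of resting T cells gave 10 lost peaks in 4 regions. The Lef1 peak (chr3:131148829-131149481, intron), at a gene for a partner of beta-catenin in naive T cells, read 1.37, 2.49 and 0.478 CPM in PBS, 11.7, 14.2 and 11.9 CPM in IL2 and 7.11, 7.17 and 4.50 CPM in FP at 0.75 h. In FP at 16 h it read 8.43, 7.36 and 7.95 CPM, and in PBS 3.84, 0.238 and 1.89 CPM. At 72 h FP (2.79, 3.32 and 2.82 CPM) and PBS (3.00, 1.77 and 2.99 CPM) overlapped, and D was 0.17. Foxp1, which encodes a factor that holds T cells in quiescence, had 3 lost regions, all in introns, and the 1 of its 9 peaks with a STAT5 match (chr6:99432647-99433529) had a D of 1.28 for IL2 at 0.75 h, 1.07 for FP at 16 h, 0.32 at 72 h and 0.31 at 168 h. In this list edgeR called 10 of 293 peaks higher for IL2 at 0.75 h, against 0.488% of all tested peaks. Among them were peaks at Bach2, Ccr7, Foxp1, Klf3 and Lef1. For FP at 16 h edgeR called 0, against 0.114%.

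Other fixed lists gave single lost peaks. Itga4 encodes the alpha 4 integrin chain used in homing. Its peak (chr2:79269993-79270687, intron) read 32.3, 22.0 and 29.8 CPM in IL2 and 9.73, 9.97 and 6.69 CPM in PBS at 0.75 h, and 29.8, 26.5 and 23.9 CPM in FP and 10.5, 8.58 and 7.99 CPM in PBS at 16 h. At 72 h FP (12.6, 12.8 and 15.3 CPM) was above every PBS library (11.0, 8.31 and 10.3 CPM), with a D of 0.44. At 168 h FP read 9.83, 3.71, 8.52 and 3.82 CPM and PBS 8.97, 13 and 8.71 CPM, a log2 fold change of -0.58 ± 0.40 (SE, edgeR adjusted p = 0.899). Among nuclear factors, the NF-kB modulator Nfkbiz had a D at 72 h of 0.00, Runx1 of 0.29 and Ets1 of 0.18, with early values from 0.84 to 1.39. No lost peak carried the name of a receptor chain, JAK or STAT of the first list or of an adaptor or kinase of the second. In all, 12 of the 116 listed genes (10.3%) had a lost peak by name, against 1.17% of all gene names with a peak. Listed genes had many peaks: 20 of their 1645 peaks (1.22%) were lost, against 0.38% of all peaks. These 20 lay in 14 regions, since overlapping peaks at Foxp1 were counted singly. The 8 lists were chosen with earlier results of these data known.

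The largest early openings, ranked by the smaller of the 2 early D values, were at Maml2, Gm17490, Far1, Trat1, Gm43177, Ccdc80, Ldlrad4 and Gcsh. Trat1 encodes a transmembrane adaptor of the T cell receptor complex. Its peak (chr16:48765154-48765622, intron) read 4.18, 6.76 and 6.45 CPM in PBS, 29.4, 29.1 and 27.5 CPM in IL2 and 18.8, 20.3 and 8.71 CPM in FP at 0.75 h. In FP at 16 h it read 21.6, 21 and 18 CPM, far above PBS (2.56, 5.00 and 6.10 CPM) and IL2 (4.10, 5.15 and 4.88 CPM). By 72 h FP had come down to 5.37, 6.18 and 5.32 CPM, each still above the PBS libraries at 3.77, 5.24 and 5.10 CPM. Maml2 encodes a coactivator of Notch, and its intronic peak (chr9:13302541-13302902) had a D of 2.26 for IL2 at 0.75 h, 2.37 for FP at 16 h and 0.46 at 72 h. The intronic peak at Far1 (chr7:113520075-113520534), whose gene encodes a reductase of fatty acyl-CoA, had the highest IL2 D at 0.75 h, 3.43, from PBS libraries at 0, 0.445 and 0 CPM, and a D of 0.12 at 72 h. The intergenic peak named for Ccdc80 (chr16:45038316-45039209) went from 1.93 at 16 h to 0.39 at 72 h and -0.91 at 168 h, where every FP library (8.92, 3.42, 8.52 and 2.51 CPM) was below every PBS library (10.7, 9.32 and 14.2 CPM), with an edgeR adjusted p of 0.899.

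**Figure D5:**
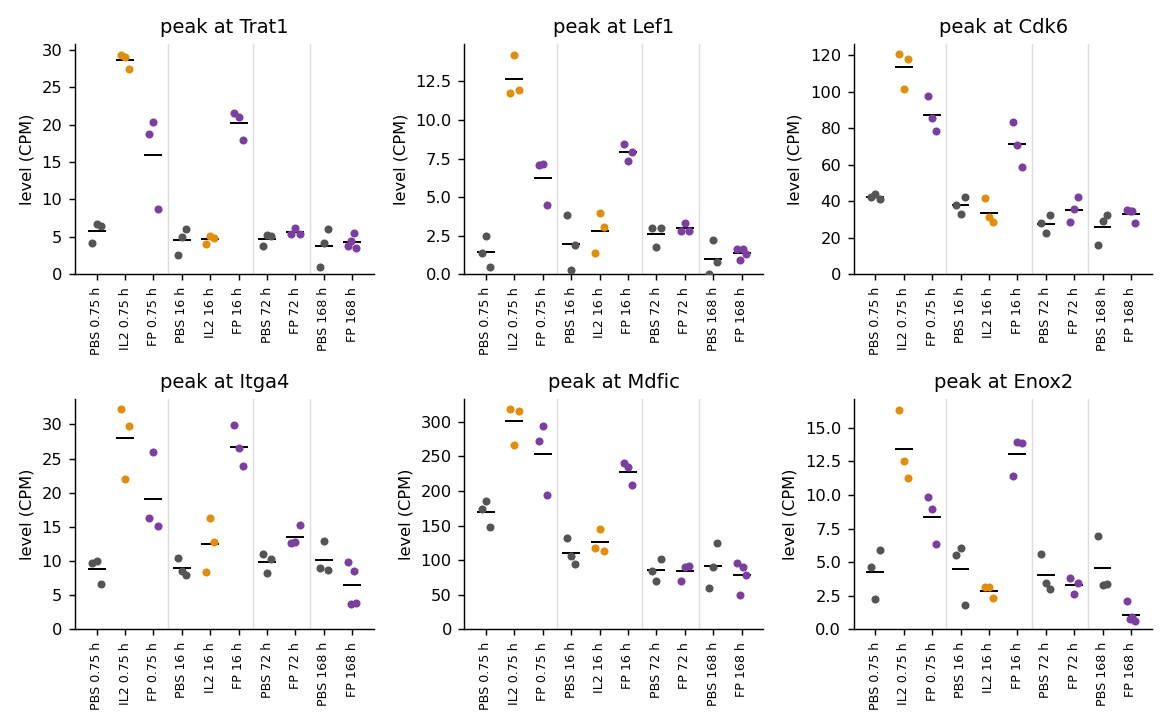
Level (vertical axes, CPM, each from 0) of 6 lost peaks in every library (points; grey PBS, orange IL2, purple FP) by treatment and time (horizontal axes), with group means as black bars. At Trat1 FP stands at 18 to 21.6 CPM at 16 h and at 5.32 to 6.18 CPM at 72 h, and at Enox2 every FP library at 168 h lies below every PBS library.

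The most accessible lost peaks had a D from 0.83 to 1.78 for IL2 at 0.75 h and from 0.85 to 1.38 for FP at 16 h. The peak at Mdfic (chr6:15792755-15793966, intron), the highest with a mean of 150 CPM over all libraries, had 319, 267 and 316 CPM in IL2 and 174, 186 and 147 CPM in PBS at 0.75 h, a D of 0.83. FP at 16 h read 240, 235 and 209 CPM against 132, 107 and 94.9 CPM in PBS, and at 72 h FP (70.4, 89.9 and 91.9 CPM) overlapped PBS (84.5, 70.4 and 102 CPM). PBS itself was lower at 72 h than at 0.75 h at this site. Mdfic had 3 lost regions, as had Fhit and Immp2l, and Mllt3, a reader of histone acylation, had 5, with a D at 72 h from -0.20 to 0.20. The peaks at Mbd5 (chr2:49176697-49177812, intron) and Slc39a10 (chr1:46864004-46864939, intron), the latter at a gene for a zinc importer, had a D of 1.17 and 1.38 for FP at 16 h and 0.20 and 0.27 at 72 h. Plcl2 encodes a protein related to phospholipase C that lacks its enzyme activity. Its peak (chr17:50524715-50525654, intron) read 118, 97.6 and 107 CPM in IL2 and 59.2, 52.9 and 60.2 CPM in PBS at 0.75 h, and 73.4, 93.1 and 64.6 CPM in FP and 45.1, 30.3 and 43.1 CPM in PBS at 16 h. At 72 h FP (55.5, 57.6 and 62.5 CPM) overlapped PBS (56.3, 51.7 and 55.4 CPM), and PBS was higher than at 16 h. Of the 8 most accessible lost peaks, named at Mdfic, Mbd5, Tmem64, Gm7266, Plcl2, Gm46348, Slc39a10 and Cdk6, all but the Gm7266 peak held a STAT5 match.

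The spread of D at 72 h ran from -0.98 to 0.50. The highest were at Gpat4, Il12rb2, A930005H10Rik, Glipr2 and Gm35135, and the lowest at Gm40658, Gm44162, Gm41414, Immp2l and Stk39, 3 of which had a mean under 2 CPM. Stk39 encodes a kinase of ion transport and had a D of 1.85 for IL2 at 0.75 h, 1.54 for FP at 16 h and -0.68 at 72 h. At 168 h the lowest D was at Enox2 (chrX:49046081-49046847, intron), which read 2.1, 0.743, 0.928 and 0.656 CPM in FP and 6.98, 3.28 and 3.35 CPM in PBS, with a log2 fold change of -1.91 ± 0.56 (SE, edgeR adjusted p = 0.899). Spef2, Gm40660, St7 and Mrtfb followed with D from -1.37 to -1.20, and at each of them every FP library was below every PBS library. The highest were at Dennd1b (1.03), A930005H10Rik, Arhgef3, Gm1604a and Mllt3. None of these passed the test, and the adjusted p of each was 0.899 in edgeR.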

How the data were processed

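Tn5-treated nuclei of sorted RFP-FoxP3 spleen Tregs were sequenced as ATAC-seq, 31 libraries in 10 groups. The authors deposited 1 table of whole-number read counts per peak, not normalized. In its first library column the fields of some rows are shifted by commas in gene names, so fields were read from the right, and that deposited column also holds counts. BWA, MACS2 2.1.2 and the build GRCm38 (mm10) are named per the submitters' processing notes. The counting tool, the duplicate filter and how the common peak set was formed were not given in the sources used, and peaks in the table overlap, so 1 site can be counted several times.

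Columns were matched to samples by name. The 16 h columns could be matched to groups only. D values and the selection were computed as in the report, with Python 3.11.15. Tests were fitted over all peaks of 1 time in edgeR 4.0.16 (R 4.3.3) with the quasi-likelihood test, TMM scaling, filterByExpr (minimum count 10, minimum total 15) and Benjamini-Hochberg adjustment at 0.05, and checked on simulated counts. DESeq2 1.42.0, other scalings, pseudocounts, and leaving out libraries were alternatives. Features came from GENCODE M21 and sequences from RefSeq GRCm38. Genes were named by fixed ranks: the 8 largest early D, the 8 highest mean levels, the 5 highest and 5 lowest D at 72 and at 168 h, the listed genes, the peaks nearest each limit, and genes with several lost regions. Lost peaks near listed genes under another name were added after the values were seen. The members and the gene lists were chosen with earlier results of these data known. Shares and medians carry no interval, and depth enters through the library totals in the report. Some items are not reported here.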

Additional observations from a re-analysis of the deposited data

Results flagged for a closer look

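In the 4 FP libraries at 168 h, 57 sets of values were screened for a library far from the others, and 4 stood out. Chance alone marks about 1 in 20 such sets. At Gm7266 replicate 2 was the lowest with 28.5 CPM, and the others read 48.9 to 51.7. At Slc39a10 replicate 1 was the highest with 47.5 CPM, against 29.4 to 31.5. At Cdk6 replicate 4 was the lowest with 28.1 CPM, against 34.5 to 35.1. At Il12rb2 replicate 2 was the highest with 3.57 CPM, against 2.53 to 2.66.

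The lost peaks' median difference from PBS, taken library by library, was below 0 in every FP library at 168 h, with a mean of -0.16 and a range from -0.26 to -0.10. The median over all peaks was below 0 in each of these libraries too, from -0.12 to -0.06, and in replicate 1 it equalled that of the lost peaks. The median of the lost peaks was above 0 in every FP library at 0.75 h (0.57 to 1.00), at 16 h (1.02 to 1.19) and at 72 h (0.13 to 0.26). The difference between times was not tested, and the 16 and 72 h values chose the peaks.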

How the results depend on the processing

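Values with no test moved as follows. For the counts below PBS and the split by STAT5 match, the setting without the 2 shallowest libraries was added after seeing the data. The number of lost peaks ran from 352 to 494 without 1 library and from 322 to 448 in the other settings. Without 1 library, edgeR called 187 to 591 peaks for IL2 at 0.75 h (59 to 170 of them lost peaks), 0 to 25 for FP at 0.75 h (0 to 6) and 37 to 143 for FP at 16 h (10 to 57). For IL2 at 16 h and FP at 72 h it called 0 in each. At 168 h DESeq2 called 46 peaks and the fit with library total as covariate 10. The other settings run called 0, and none of the settings called a lost peak. The median D at 168 h was -0.055 with no peak dropped, -0.22 without the 2 shallowest libraries, and -0.19 to -0.063 without 1 library. Lost peaks with every FP library below PBS numbered 15 with TMM sizes and 16 with no peak dropped. They numbered 83 without the 2 shallowest libraries and 32 to 58 without 1 library, where fewer libraries need to separate. Over all peaks the share was 3.24% with all libraries and 15.1% without the 2 shallowest. Counts from different numbers of libraries are therefore not comparable. Where no share over all peaks is given, nothing is read from the count. The split by STAT5 match was -0.21 with a pseudocount of 2 CPM and -0.38 without the 2 shallowest libraries. It was -0.0745 with overlapping peaks merged and -0.34 to -0.19 without 1 library. GAS matches were in 57.1% of lost peaks in the central 200 bases. Beyond the shorter window and the merging, the cause of these shifts was not tested. Of 54 named peaks, 38 kept the sign of D at 168 h in all settings. With the replicate number at 168 h as a replicate block, edgeR called 0 peaks. After the group means were taken off, same-numbered libraries correlated at -0.23, 0.24 and 0.42, and differently numbered ones at -0.60 to 0.44. Whether the numbers pair the libraries cannot be told from so few values. At a spread of 48.0% between libraries, the test recovered 5% of simulated 2-fold and 49% of simulated 4-fold changes, with 8 false calls. Depth and number of libraries were not varied in that simulation.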
